A study of Mus musculus with 9 samples.

Results

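The PKM1 knock-in mouse embryonic stem (ES) cell line was followed over 3 days of sampling on 3 of the 9 arrays of the series, chosen by their titles. The day 0 array held RNA of undifferentiated ES cells kept with LIF, the cytokine that sustains mouse ES cells. The day 3 and day 7 arrays held RNA of embryoid bodies, aggregates grown in floating culture without LIF. The genotype is a knock-in of PKM1, a splice form of pyruvate kinase M, the enzyme that catalyses the last step of glycolysis. The same 3 days were sampled in a PKM2 knock-in line (the other splice form) and in a wild type line, with the same culture. The series was made to follow differentiation into the germ layers. There was 1 array per line and day, with no repeats, so every difference compares 2 RNA samples and was not tested. The number of arrays limits the precision, and each genotype is represented by 1 line. The labels do not say how the knock-in allele was made or whether the line is 1 clone.

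Embryoid bodies form an outer layer of primitive endoderm, which gives visceral endoderm and parietal endoderm. Visceral endoderm is an absorptive and secretory epithelium: it takes up maternal proteins through endocytic receptors and secretes carriers such as alpha-fetoprotein and apolipoproteins, much as fetal liver does later. Parietal endoderm lays down a thick basement membrane of laminin and type IV collagen. Inner cells leave naive pluripotency, pass through a formative epiblast state and enter the germ layers. In a bulk sample, fewer cells of a type and less RNA per cell cannot be told apart.

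On the 3 arrays of the line, 54.2, 57.1 and 60.9 percent of the non-control spots were well above background at days 0, 3 and 7, and 0 spots were saturated. Levels are log2 processed signals scaled to a common 75th percentile, and differences are log2 differences. Probes printed 10 times on an array gave a median spot-to-spot SD between 0.063 and 0.080 on these arrays, which covers the array and not the culture. The day 0 and day 7 arrays lay on the same slide with the wild type day 3 array. The day 3 array lay on another slide, so day 3 and slide cannot be told apart within the line. Genes above background numbered 13774 at day 0, 14149 at day 3 and 15037 at day 7. Correlations of log2 signal within the line were 0.958 for day 3 and day 0, 0.919 for day 7 and day 0, and 0.903 for day 7 and day 3, over 16908 genes, which are not independent of each other.

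Stem cell genes and Pkm were read first as a check of the labels. The stem cell genes Pou5f1, Sox2 and Esrrb were well above background at day 0, at 14.88, 13.19 and 16.67. They were also above background at days 3 and 7, so this checks neither the day nor the line. The single Pkm probe read 13.56, 14.72 and 13.90 at days 0, 3 and 7. It read 13.78, 14.31 and 13.63 in the PKM2 knock-in line and 13.66, 16.10 and 14.67 in the wild type line. Its position with respect to the exons that differ between PKM1 and PKM2 is unknown here, so it checks nothing about the knock-in.

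The main feature of the line was a large set of genes that were higher at day 7 than on the earlier days. At day 7, 893 of 15332 measured genes were at least 4-fold higher than at day 0 (5.82 percent) and 272 were at least 4-fold lower (1.77 percent). A gene was measured where it was well above background on at least 1 of the 2 arrays. A level below background counted at the detection limit of its array, and folds against such a level are given as "at least". The higher genes included 132 that were at least 32-fold higher, and the lower genes 11 that were at least 32-fold lower. In 336 of the 893 the day 0 level was at the limit, and such a gene could be measured only through its day 7 level. Below background on both earlier days were 247 of the 893 (27.7 percent).

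Between day 3 and day 0 the balance ran the other way. At day 3, 210 of 14673 measured genes were at least 4-fold higher (1.43 percent), and 360 were at least 4-fold lower (2.45 percent). Between day 7 and day 3, 1148 of 15519 genes were at least 4-fold higher (7.4 percent) and 393 at least 4-fold lower (2.53 percent). That made 74.5 percent of the differences higher, against 85.9 percent when the 75th percentile was taken over probes detected on all arrays. With normexp background correction the counts for day 7 against day 0 were 495 higher and 126 lower. Of the 893 genes higher at day 7 than at day 0, 43 were already at least 4-fold higher at day 3 (4.82 percent), and their median difference at day 3 was 0.02. Of the 272 lower genes, 120 were already at least 4-fold lower at day 3 (44.1 percent), with a median difference of -1.79. Among 2047 genes whose level ranged at least 4-fold over the 3 days, 1232 were highest at day 7 (60.2 percent), 445 at day 3 (21.7 percent) and 370 at day 0 (18.1 percent).

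**Figure D1:**
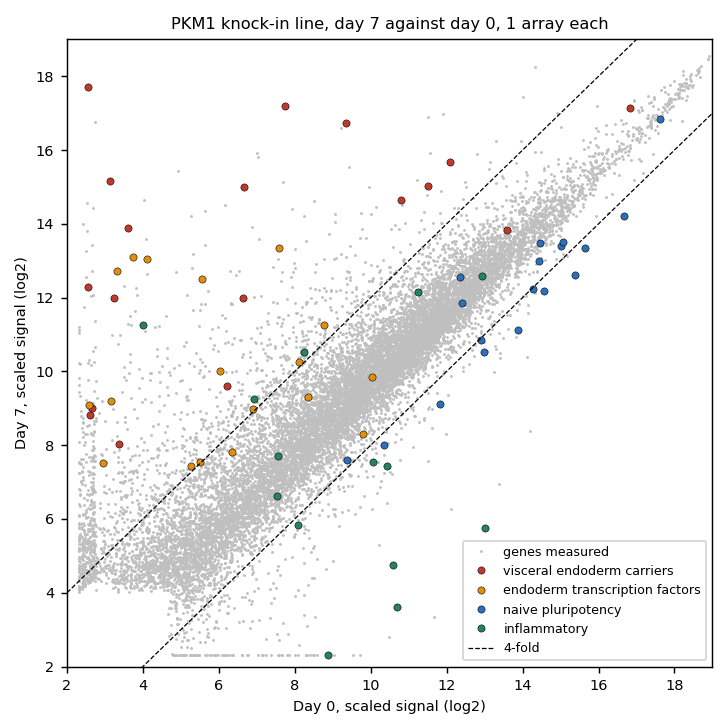
Log2 scaled signal of every measured gene in the PKM1 knock-in line, with day 7 on the vertical axis and day 0 on the horizontal axis, 1 array each, and dashed lines at a 4-fold difference. Levels below background are drawn without the detection limit, so the genes beyond the dashed lines are not exactly those counted in the text. Visceral endoderm carriers (red) and endoderm transcription factors (orange) lie mostly above the upper line. Of 18 naive pluripotency genes (blue), 10 lie below the lower line.

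Both other lines showed smaller counts of higher genes over the same days, while the count of lower genes was larger in the PKM2 knock-in line. Day 7 minus day 0 gave 278 genes at least 4-fold higher (1.84 percent) and 312 lower (2.07 percent) in the PKM2 knock-in line. In the wild type line 396 were higher (2.55 percent) and 231 lower (1.49 percent). Of the 893 genes higher in the PKM1 knock-in line, 39 were also at least 4-fold higher in the PKM2 knock-in line and 228 in the wild type line. A difference in the other direction of at least 4-fold was seen for 39 in the PKM2 knock-in line and 4 in the wild type line. Of the same 893 genes, 165 were not measured over these days in the PKM2 knock-in line and 105 in the wild type line. The choice of the genes fixed their direction in the PKM1 knock-in line, so these counts are a description. The differences between lines were not tested, and no other array of the series shared the slide of the PKM2 knock-in day 7 sample.

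The visceral endoderm carriers, secreted proteins that move lipids, retinol, thyroid hormone and metals, were the list with the highest median at day 7. Their median difference between day 7 and day 0 was 4.90, against -0.15 over all measured genes. Of 19 carriers on the array, 18 were measured, 16 of them at least 4-fold higher and 0 at least 4-fold lower, against a background of 5.82 percent higher. The day 0 level of 8 was at the detection limit. At day 3 the median of the 11 measured carriers was -0.43, so the list as a whole was not higher before day 7. Over the members above background, the summed scaled signal was 139355 at day 0, 67269 at day 3 and 841713 at day 7.

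Promoter windows are shown for 3 genes, each from 250 bases before to 50 after the RefSeq start of the gene (RefSeq promoter table, build GRCm38.p6), written 5′ to 3′ on the strand of the gene. Afp and Alb are shown because these neighbours on chromosome 5 had the highest difference of the line and no level above background, and Fgb as the highest member of the coagulation list. The windows lie at chr5:90490464-90490763 (plus strand), chr5:90460620-90460919 (plus strand) and chr3:83049814-83050113 (minus strand). Capitals mark the exact letters TATAAA, a form of the TATA box, searched on both strands. Other forms were not searched, so a window without TATAAA can still hold a similar run, such as tatatata in the Fgb window. For factors of the Gata family the letters searched were AGATAA, for Hnf4 factors they were AAAGTCC and for Fox factors they were TGTTTAC. These letters were not in the 3 windows on either strand.
Afp: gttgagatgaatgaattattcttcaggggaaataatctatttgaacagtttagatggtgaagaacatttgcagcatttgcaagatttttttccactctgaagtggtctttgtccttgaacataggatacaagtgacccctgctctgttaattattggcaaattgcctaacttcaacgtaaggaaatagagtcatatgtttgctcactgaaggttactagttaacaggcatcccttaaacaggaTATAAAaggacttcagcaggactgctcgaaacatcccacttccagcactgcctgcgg
Alb: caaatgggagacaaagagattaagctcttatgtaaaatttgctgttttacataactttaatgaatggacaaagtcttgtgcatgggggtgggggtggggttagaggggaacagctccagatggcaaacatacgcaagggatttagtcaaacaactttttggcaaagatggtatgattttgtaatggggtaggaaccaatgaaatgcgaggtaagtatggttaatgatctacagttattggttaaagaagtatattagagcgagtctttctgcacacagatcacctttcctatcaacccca
Fgb: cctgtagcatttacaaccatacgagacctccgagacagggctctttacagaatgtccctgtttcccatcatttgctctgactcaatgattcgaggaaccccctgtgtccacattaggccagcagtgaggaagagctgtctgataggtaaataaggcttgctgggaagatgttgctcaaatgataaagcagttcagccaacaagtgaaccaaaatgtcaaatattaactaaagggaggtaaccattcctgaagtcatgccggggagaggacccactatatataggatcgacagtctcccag
TATAAA was in the Afp window alone of the 3, beginning 7 bases before the start. It occurred on either strand in 14.2 percent of 27025 promoter windows and in 8.89 percent of the 12177 windows of measured genes. The share was 12.85 percent of the 677 windows of genes at least 4-fold higher at day 7, and 18.8 percent of the 197 windows of genes at least 4-fold lower. A match is a description of the letters and not a binding site.

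Afp, alpha-fetoprotein, read 2.55 and 2.32 at days 0 and 3, neither well above background, and 17.70 at day 7. It was at least 8916-fold higher at day 7 than at day 0, the highest difference of the line. Its level at day 7 was 6.30 in the PKM2 knock-in line and 9.10 in the wild type line, both above background. Alb, albumin, was not well above background on any of the 3 days of the line, at 2.72, 2.32 and 3.11. Of the other members of this gene family on chromosome 5, Gc, the vitamin D binding protein, read 6.22, 10.04 and 9.60, and Afm, afamin, read 7.28, 7.24 and 10.40. The 4 neighbours followed different courses in this line: Gc was high from day 3, and Afp and Afm at day 7. Gc differed between lines on every day. It read 9.01, 10.59 and 9.37 in the PKM2 knock-in line, already high at day 0. In the wild type line it was below background on all 3 days. Afm was on no list and is named as their neighbour after its values were seen.

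Ttr, transthyretin, read 3.13, 3.27 and 15.15 at days 0, 3 and 7, above background on day 7 alone, and was at least 1527-fold higher at day 7 than at day 0. Rbp4, the retinol carrier that binds it, was above background throughout at 7.75, 6.74 and 17.20, and was 699-fold higher. Apob, the structural protein of large lipoproteins, read 3.60 (below background), 4.64 and 13.88 and was at least 630.1-fold higher. Mttp, which loads lipid onto Apob, read 6.65, 5.96 and 12.00, a difference of 5.35 between day 7 and day 0. Apom read 6.67, 6.45 and 15.00, a difference of 8.32. None of these carriers was at least 4-fold higher at day 3, and all were high on the day 7 array alone.

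The apolipoprotein cluster on chromosome 9 was below background on both earlier days. Apoa1, the main protein of high density lipoprotein, read 2.56, 2.34 and 12.30 at days 0, 3 and 7. Apoa4 read 2.67, 2.36 and 9.02, and Apoc3 read 3.37, 3.90 and 8.03. All 3 were above background only at day 7, with differences of at least 7.72, 4.44 and 3.45. Apoa5, from the same cluster, read 4.27 at day 7 and differed little from the day 0 limit, and it was on no list. Apoa2 was already at 11.52 and 11.77 and reached 15.02. Apoe and Apoc1, already high at day 0, read 17.13 and 13.82 at day 7 and 16.83 and 13.59 at day 0, differences of 0.30 and 0.23, and were the 2 measured carriers under 4-fold.

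Of the remaining carriers, Ambp, precursor of a protease inhibitor, was at least 170.4-fold higher at day 7 than at day 0, and Spink1, a trypsin inhibitor, 169-fold higher. Spink1 was the 1 carrier besides Gc that was at least 4-fold higher at day 3, at 9.35, 11.89 and 16.75. Vtn, vitronectin, was at least 18.8-fold higher. Trf, transferrin, read 10.79, 10.36 and 14.65, and Clu, clusterin, 12.10, 11.22 and 15.68.

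**Figure D2:**
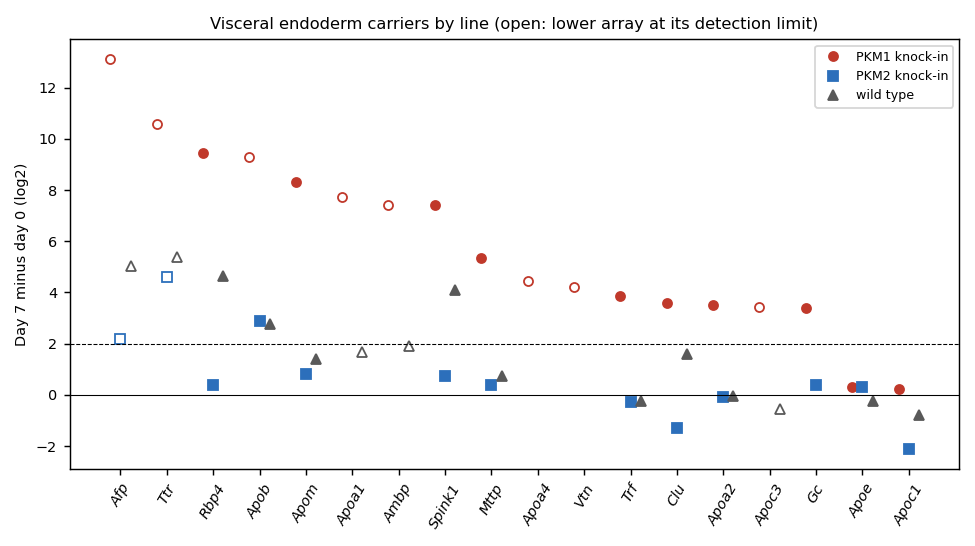
Log2 difference of each visceral endoderm carrier between day 7 and day 0 in the PKM1 knock-in (red circles), PKM2 knock-in (blue squares) and wild type (grey triangles) lines, 1 array per line and day, with a dashed line at 4-fold. Open symbols mark a difference against a detection limit and a missing symbol a gene not measured in that line. The PKM1 knock-in symbol is the highest for each of the 18 carriers shown, although for Apoe it stands at 0.30 against 0.29 in the PKM2 knock-in line.

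Coagulation and complement genes, which liver and yolk sac endoderm share, had a median difference of 2.55 between day 7 and day 0. Of 16 measured, 10 were at least 4-fold higher and 1 at least 4-fold lower, and 5 were measured against a limit. The 3 fibrinogen chains are encoded side by side on chromosome 3. Fgb read 2.43, 2.54 and 14.00 at days 0, 3 and 7, below background before day 7, at least 687.7-fold higher at day 7 than at day 0. Fgg read 5.97, 4.79 and 11.20, and Fga 5.40, 4.64 and 8.32. All 3 chains were higher at day 7, with differences of at least 9.43 for Fgb, 5.22 for Fgg and 2.93 for Fga. Cfi, a complement protease, was at least 179-fold higher, Serpina1a, a protease inhibitor, at least 204-fold higher and F2, prothrombin, 89.1-fold higher.

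The endocytic receptors had a median difference of 1.87 between day 7 and day 0, with 7 of 14 measured members at least 4-fold higher and 0 at least 4-fold lower. Cubn, cubilin, read 5.26, 6.61 and 14.21 at days 0, 3 and 7, and was 494-fold higher at day 7 than at day 0. Its membrane partner Amn, amnionless, read 7.98, 7.02 and 12.94, and the co-receptor Lrp2, megalin, 7.96, 9.38 and 12.69. Dab2, the clathrin adaptor of these receptors, read 5.29, 3.42 and 12.80, with the day 3 level below background. All 4 parts of the uptake machinery were higher at day 7 than at day 0, between 26.6-fold for Lrp2 and 494-fold for Cubn. Stra6, the receptor of Rbp4, was above background only at day 7, at 8.36. Slc39a8, a metal transporter, was 72.0-fold higher, and Folr1, the folate receptor, 4.03-fold higher.

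The other receptors were under 4-fold at day 7. Tfrc, the transferrin receptor, read 10.68, 12.16 and 9.75, and Scarb1 10.81, 10.49 and 10.35. Vldlr, a lipoprotein receptor, was lower at day 3 only, at 11.21, 6.72 and 11.42. Lrpap1, the chaperone of Lrp2, differed by 1.72 between day 7 and day 0. Fcgrt and Slc39a4 differed by 0.77 and 0.65.

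Genes of lysosomes, which degrade what these receptors bring in, had a median difference of 1.12. Of 18, 5 were at least 4-fold higher, against 5.82 percent of all measured genes. Ctsh, cathepsin H, read 9.22, 6.77 and 16.61 at days 0, 3 and 7. Ctsc differed by 4.78 between day 7 and day 0, Lipa, a lipase, by 3.44, Lgmn by 2.94 and Ctsl by 2.11. The 13 others were under 4-fold.

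Endoderm transcription factors had a median difference of 2.72 between day 7 and day 0, with 14 of 18 measured members at least 4-fold higher and 0 at least 4-fold lower. Sox17, Foxa2 and Hnf4a, which specify endoderm, read 13.10, 13.04 and 12.73 at day 7, against 3.75, 4.12 and 3.32 at day 0, all below background. They were at least 367-fold, 354-fold and 284-fold higher. Gata6, which starts primitive endoderm, read 5.55, 4.88 and 12.50 at days 0, 3 and 7, and Gata4 read 7.60, 5.65 and 13.34. Neither GATA factor was higher at day 3 than at day 0.

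Foxa1, a relative of Foxa2, read 6.04, 5.42 and 10.01, and Foxa3 6.89, 6.79 and 8.97. Sox7, a partner of Sox17 in extraembryonic endoderm, read 8.77, 5.04 and 11.25. Cdx2, a factor of trophoblast and hindgut, and Tfec were at least 24.6-fold and at least 22.9-fold higher at day 7 than at day 0. Eomes, Lhx1 and Nr2f2 differed by 2.14, 2.18 and 2.03. Gsc, Hhex and Prdm1 were under 4-fold, with differences of 1.48, 0.96 and -1.49. Hnf4g and Onecut1, factors of later gut and liver, were not above background on any of the 3 days.

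**Figure D3:**
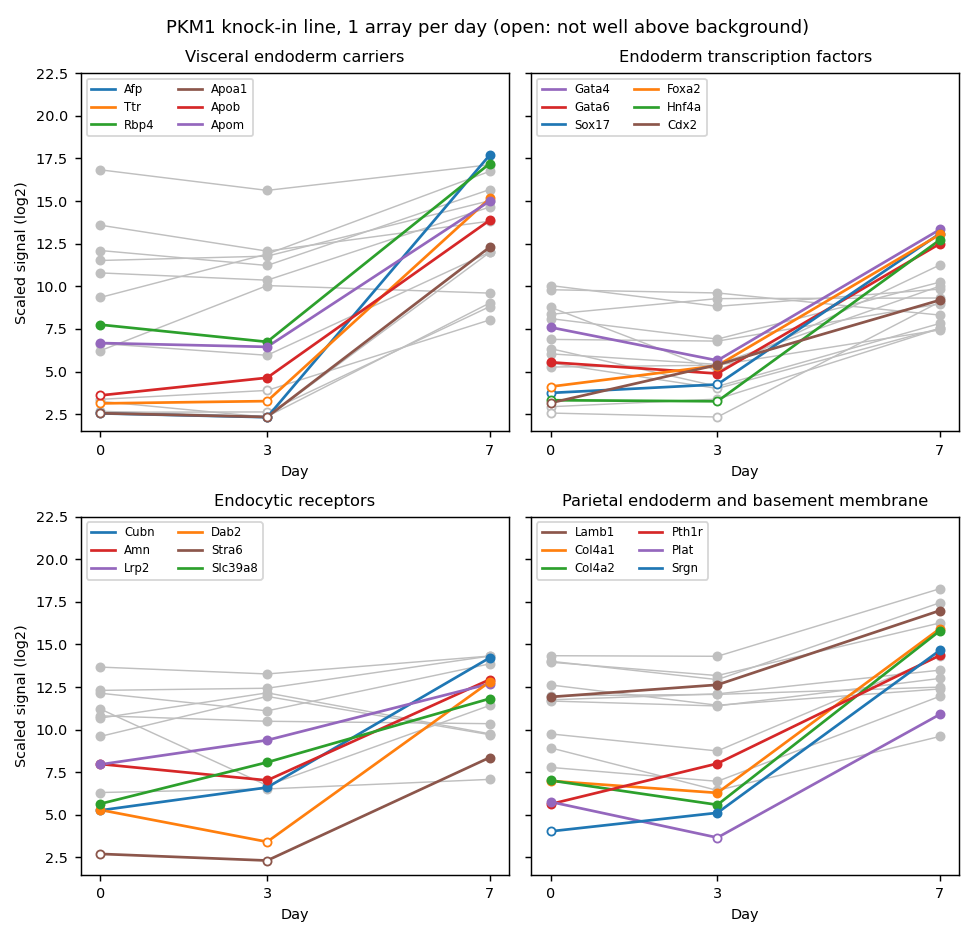
Log2 scaled signal by day in the PKM1 knock-in line for 4 gene lists, 1 array per day, with a line per gene and open symbols for levels not well above background. Named genes are the 6 of each list with the largest difference between day 7 and day 0. Afp, Ttr, Sox17 and Hnf4a are open at days 0 and 3 and filled at day 7, and of the named receptors and parietal genes Slc39a8 and Pth1r were at least 4-fold higher by day 3.

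Parietal endoderm and basement membrane genes had a median difference of 4.05 between day 7 and day 0, with 11 of 16 at least 4-fold higher and 0 at least 4-fold lower. Col4a1 and Col4a2 encode the chains of type IV collagen and lie head to head on chromosome 8. Their promoter windows, at chr8:11312777-11313076 (minus strand) and chr8:11312555-11312854 (plus strand), share 78 bases, which are in capitals. They are shown because the pair was high on the same day.
Col4a1: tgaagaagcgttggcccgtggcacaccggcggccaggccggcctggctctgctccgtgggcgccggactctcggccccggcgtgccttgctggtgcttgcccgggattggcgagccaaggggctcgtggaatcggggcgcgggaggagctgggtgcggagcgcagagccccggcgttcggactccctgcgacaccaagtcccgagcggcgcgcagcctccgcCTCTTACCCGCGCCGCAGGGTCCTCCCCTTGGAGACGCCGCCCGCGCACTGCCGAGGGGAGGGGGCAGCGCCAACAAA
Col4a2: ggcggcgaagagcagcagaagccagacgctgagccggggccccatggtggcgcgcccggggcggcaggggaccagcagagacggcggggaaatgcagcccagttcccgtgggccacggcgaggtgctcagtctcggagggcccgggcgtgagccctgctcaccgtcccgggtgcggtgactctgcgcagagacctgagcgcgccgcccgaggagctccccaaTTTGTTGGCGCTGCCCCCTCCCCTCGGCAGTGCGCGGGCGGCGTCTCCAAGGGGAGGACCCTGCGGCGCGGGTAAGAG
Col4a1 read 6.99, 6.29 and 15.93 at days 0, 3 and 7, and Col4a2 7.02, 5.59 and 15.80. The differences between day 7 and day 0 were 8.93 and 8.78. The laminin chains were high on the same day. Lamb1 read 11.92, 12.63 and 16.99, and Lama1 14.01, 12.94 and 17.44. Sparc, a matrix glycoprotein of parietal endoderm, read 14.34, 14.30 and 18.27.

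Srgn, serglycin, a proteoglycan core, was at least 1081-fold higher at day 7 than at day 0, and Pth1r, the parathyroid hormone receptor, which promotes parietal endoderm in the mouse, 424-fold. Plat, tissue plasminogen activator, differed by 5.13. Thbd, Nid1, Nid2, Hspg2 and Vim were under 4-fold. Genes of visceral and parietal endoderm were both high on the day 7 array, and a bulk sample does not say whether the same cells held both.

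The 10 largest differences between day 7 and day 0 were those of Afp, S100g, Ttr, Aqp8, Srgn, Hkdc1, Lgals2, Rbp4, Fgb and Apob. S100g, an intestinal calcium binding protein, read 2.73, 2.32 and 16.76 at days 0, 3 and 7, below background before day 7. Aqp8, a water channel, stood at 15.43 at day 7 and 4.91 at day 0. Hkdc1, a hexokinase family member, read 2.53, 3.02 and 14.57, and Lgals2, a galectin, stood at 14.43 at day 7 and 2.68 at day 0, both below background before day 7. All 10 stood at 13.88 or more at day 7 and at 7.75 or less at day 0. Between day 7 and day 3, the 10 largest were led by the same Afp, S100g and Ttr, and added Col4a2, Slco2a1, a prostaglandin transporter at 7.92, 3.46 (below background) and 14.40, and Ctsh.

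Of 16 hepatocyte genes, 8 were measured and 1 was at least 4-fold higher, against 5.82 percent of all measured genes. Their median difference was 0.18, which turned to -0.20 with normexp, -0.61 with no filter and -0.96 with all 3 arrays of the line above background. Cps1, Pck1 and Otc were among the 8 hepatocyte genes not above background at day 0 or day 7. In the list of fatty acid and lipid droplet genes, 5 of 22 were at least 4-fold higher, against 5.82 percent of all measured genes, and 11 of 22 were higher at all. Mogat2, which rebuilds triglycerides, was 71.0-fold higher, Fabp2 at least 38.6-fold and Fabp1 at least 18.6-fold. The median of that list was -0.05, and between -0.12 and 0.17 over the processing alternatives.

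Smooth muscle genes had a median difference of 2.89 between day 7 and day 0, with 5 of 7 at least 4-fold higher. Acta2 read 7.06, 4.64 and 13.59 at days 0, 3 and 7, and Tagln 10.15, 9.97 and 14.47. Cardiac genes had a median of 0.59 (-0.07 with normexp), with 5 of 21 at least 4-fold higher, against 5.82 percent of all measured genes. They were led by Myl3 at 7.56, 5.95 and 13.05 and Myh7 at 5.64, 6.28 and 10.14. Hand2, Mef2c, Pln and Tbx5, heart genes on the same list, were not above background on any day of the line.

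Primitive streak and mesoderm genes had a median difference of 0.65. Of 15, 4 were at least 4-fold higher and 1 lower, against 5.82 and 1.77 percent of all measured genes. The median turned to -0.22 with no filter, -0.10 with normexp and -0.0073 with the mean of probes. The largest was Pdgfra, which primitive endoderm also carries, at 5.15, 3.07 (below background) and 12.06 at days 0, 3 and 7. T, the brachyury gene of the streak, was above background only at day 7, at 6.15, and Mesp1, Msgn1 and Foxf1 on none of the 3 days. In the list of anterior and definitive endoderm, 3 of 10 measured were at least 4-fold higher at day 7 than at day 0 and 1 at least 4-fold lower. The 3 were Sfrp5, with a difference of 5.76, Dkk1, with at least 4.08, and Cer1, with at least 3.12. The median of that list was 0.15, and turned to -0.03 with normexp and -0.53 with all 3 arrays of the line above background. It was 1.32 in the wild type line, with 4 of 10 at least 4-fold higher and 0 at least 4-fold lower. Lefty1, a Nodal inhibitor, was highest at day 3, at 10.22, 14.31 and 10.29.

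Neural ectoderm genes had a median difference of -0.75, with 0 of 16 at least 4-fold higher and 1 lower, Hes5. Over all measured genes, 5.82 percent were at least 4-fold higher and 1.77 percent at least 4-fold lower. Blood genes had a median of -0.64, with 1 of 11 higher, near that share, and 1 lower. The higher 1 was Runx1, at 5.76, 4.31 and 8.08. Endothelial genes had a median of 0.63, with 2 of 12 higher, Flt1 at 6.28, 4.77 and 12.73 and Ramp2 at 7.64, 9.25 and 12.44. The endothelial median was -0.61 with no filter and 0.03 with all 3 arrays of the line above background. Cdh5, the adhesion molecule of endothelium, read 6.84, 2.33 (below background) and 7.36, and Tie1, Emcn and Flt4 were not above background on any of the 3 days. Flt1 is also expressed by trophoblast. Trophoblast genes had a median of 0.69, between -0.14 and 0.88 over the processing alternatives. Of 12 measured, 3 were higher and 1 lower, against 5.82 and 1.77 percent of all measured genes. Plac1 was at least 3.43 higher and Tpbpa was not above background.

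Simple epithelial genes had a median difference of 1.02, with 7 of 16 at least 4-fold higher. The keratin partners Krt8 and Krt18 read 9.07, 7.87 and 14.26, and 11.51, 10.55 and 16.90, at days 0, 3 and 7. Krt19 read 8.31, 7.54 and 13.55. The tight junction gene Cldn6 differed by 2.77 between day 7 and day 0, while Cdh1 and Epcam, epithelial genes already above background at day 0, differed by 0.17 and 0.16.

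**Figure D4:**
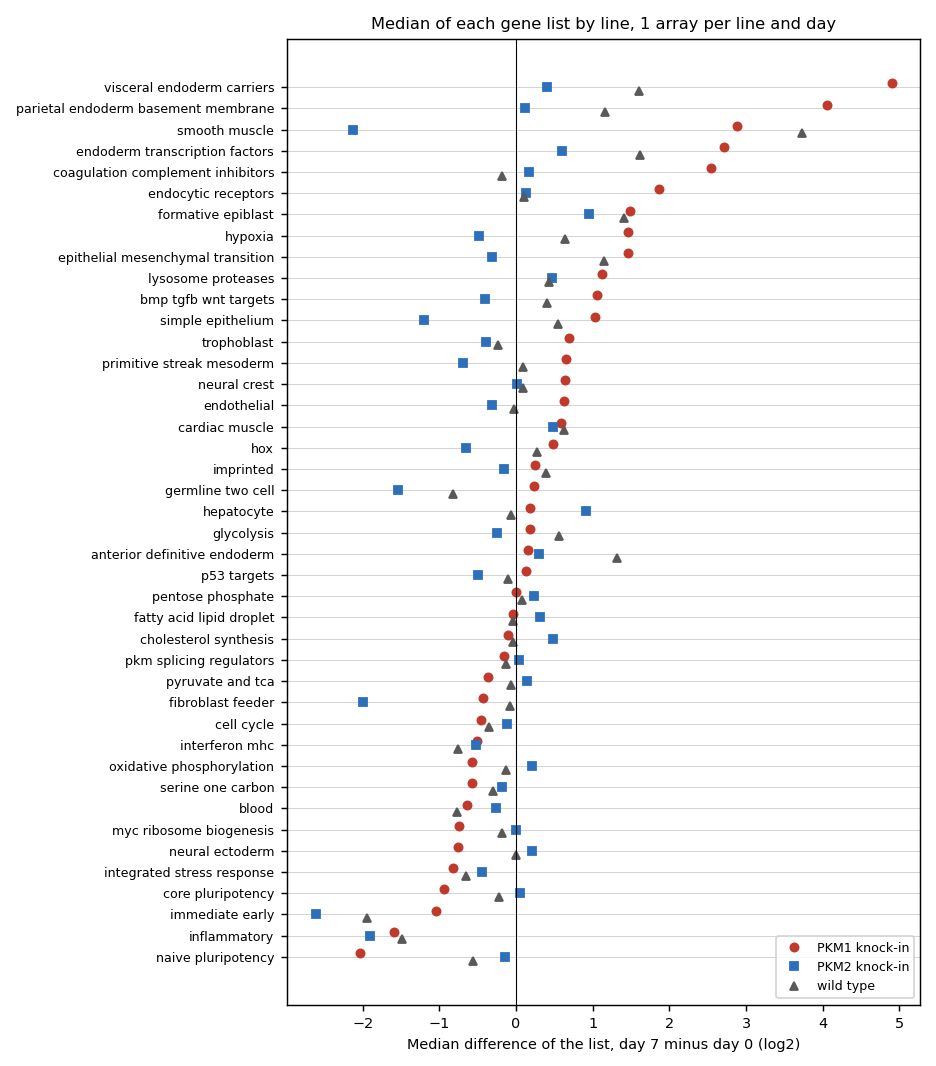
Median log2 difference between day 7 and day 0 of 42 gene lists (rows, ordered by the PKM1 knock-in line), in the PKM1 knock-in (circles), PKM2 knock-in (squares) and wild type (triangles) lines, 1 array per line and day. The medians of visceral endoderm carriers, parietal endoderm, endoderm factors and coagulation genes are highest in the PKM1 knock-in line and that of naive pluripotency is lowest there, and smooth muscle is higher in wild type.

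The same lists in the other lines were given by their medians. Carriers had 4.90 in the PKM1 knock-in line, 0.40 in the PKM2 knock-in line and 1.60 in the wild type line. Parietal endoderm genes had 4.05, 0.11 and 1.16 in that order of lines, and endoderm factors 2.72, 0.60 and 1.61. Coagulation genes had 2.55 in the PKM1 knock-in line, 0.17 in the PKM2 knock-in line and -0.19 in the wild type line. Smooth muscle had 2.89 in the PKM1 knock-in line, -2.12 in the PKM2 knock-in line and 3.73 in the wild type line.

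Single genes showed where the line stood apart. Over 15332 genes measured in the line, 481 had a difference between day 7 and day 0 at least 2 (log2) above that of both other lines, and 102 at least 2 below. A gene not measured over these days in another line counted as 0 there, and 337 of the 481 and 56 of the 102 were measured in both other lines. The farthest above were Igfbp1, Spp2, Afp, Fgb, Gkn2, Lgals2, Cfi, Krt23, Slc23a3 and Apom. Igfbp1, a binding protein of insulin-like growth factors, read 13.26 at day 7 in the PKM1 knock-in line, 2.35 in the PKM2 knock-in line and 2.76 in the wild type line, both below background. Spp2, a secreted phosphoprotein, stood at 13.44, 3.58 (below background) and 4.61, and Gkn2, a gastric secreted protein, at 13.82, 5.55 and 3.86 (below background), in that order of lines. Igfbp1 and Cfi were measured over these days in neither other line. The farthest below were Hoxd11, Tcl1b3, Olfr533, Olfr291, Pou3f4, Tnr, Kcnf1, Vmn1r231, Insm2 and Krtap8-1, which were above background at day 0 and not at days 3 and 7 in the line. Of these 10, Hoxd11, Kcnf1 and Krtap8-1 alone were measured over these days in another line.

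Naive pluripotency genes, the transcription factors and markers of the ground state, had a median difference of -2.04 between day 7 and day 0. Of 18 measured, 10 were at least 4-fold lower and 0 at least 4-fold higher, against a background of 1.77 percent lower. Klf2 read 15.38, 14.27 and 12.60 at days 0, 3 and 7, and Esrrb 16.67, 15.82 and 14.22. Tfcp2l1 read 13.89, 12.94 and 11.12, and Prdm14, which guards naive cells, 11.84, 10.29 and 9.12. At day 3, 2 of the 18 were at least 4-fold lower, Klf4 and Tbx3, at 12.32 and 12.13 at day 3 and 15.00 and 14.43 at day 0. The list medians of the other lines were -0.15 in the PKM2 knock-in line and -0.56 in the wild type line.

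Core pluripotency genes were lower by less. The median difference was -0.94 between day 7 and day 0, with 0 of 13 past 4-fold either way. Pou5f1 read 14.88, 15.04 and 13.05 at days 0, 3 and 7, and Sox2 13.19, 12.52 and 11.26. Both stayed well above background at day 7. In the other lines Pou5f1 differed by -0.03 in the PKM2 knock-in line and -0.39 in the wild type line.

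Formative epiblast genes, switched on as naive cells exit, were higher from day 3. Their median difference between day 3 and day 0 was 2.09, with 6 of 12 at least 4-fold higher, against a background of 1.43 percent. Fgf5 read 3.65, 8.16 and 10.48 at days 0, 3 and 7, Lef1 3.35, 8.80 and 7.26, and Bcl11a 2.63, 8.50 and 6.53, all below background at day 0. Dnmt3b, a DNA methyltransferase, read 12.52, 15.25 and 14.25. At day 7, 4 of the 12 were at least 4-fold higher than at day 0 and the median was 1.49.

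Connective tissue genes, which mark fibroblasts and feeder cells, were high at day 0 and low at day 3. Their summed scaled signal was 20934 at day 0, 1222 at day 3 and 7496 at day 7 in the line. Of the 22 on the array, 19, 9 and 17 were above background on those days. Dcn, decorin, read 13.38, 4.75 and 6.95, and Mgp 11.68, 6.98 and 3.35, the last below background. Between day 3 and day 0 the median of the list was -2.87. Of 19, 0 were at least 4-fold higher and 11 lower, against 2.45 percent of all measured genes lower. Between day 7 and day 0 the median was only -0.43, with 8 of 21 measured genes higher. Col1a2 read 11.18, 6.35 and 11.41, back at day 7 to its day 0 level. At day 7, Postn was at least 2.98 above its day 0 limit, and Mgp, Dcn, Mmp3, Lum, Col6a3 and Col6a1 were at least 4-fold lower than at day 0. The sum was 6877 at day 0 in the PKM2 knock-in line and 22380 in the wild type line. Bright members weigh most in these sums: at day 0 Dcn read 9.21 and 13.41 in those lines, and Mgp 9.83 and 11.32. Whether feeder cells or fibroblast-like cells contributed to day 0 was not tested.

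Inflammatory and immediate early genes were also lower at day 3 than at day 0. Over all measured genes, 2.45 percent were at least 4-fold lower at day 3, and 1.77 percent lower and 5.82 percent higher at day 7. Inflammatory genes had a median of -4.61 between day 3 and day 0, with 10 of 13 at least 4-fold lower. Between day 7 and day 0 their median was -1.59, with 7 of 14 lower and 3 higher. Lcn2 read 13.00, 5.64 and 5.76 at days 0, 3 and 7, and Il6 8.87, 2.32 and 2.32, below background after day 0. Among the 10 largest decreases between day 7 and day 0 were also Saa3, an acute phase protein, at 10.70, 5.12 and 3.62 (below background), and Cxcl5, a neutrophil chemokine, at 10.58, 5.11 and 4.75. Slpi, a protease inhibitor of secretions, read 9.72 at day 0 and was below background afterwards. Cxcl10, an interferon-induced chemokine, was higher, at 11.26 at day 7 and below background on both earlier days. Immediate early genes had a median of -1.76 between day 3 and day 0, with 5 of 14 at least 4-fold lower. Between day 7 and day 0 it was -1.05, with 4 of 14 at least 4-fold lower and 4 of 14 higher at all. That day 7 median was -2.62 in the PKM2 knock-in line and -1.94 in the wild type line. Fos, an immediate early factor, read 14.18, 6.20 and 8.38, its relative Fosb 12.12, 5.73 and 6.26, and Egr1 14.12, 9.61 and 10.40. Atf3, of the stress response, read 11.78, 5.23 and 12.42. The summed signal of the connective tissue list moved with these genes over days 0 and 3, and its part in the result was not tested.

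**Figure D5:**
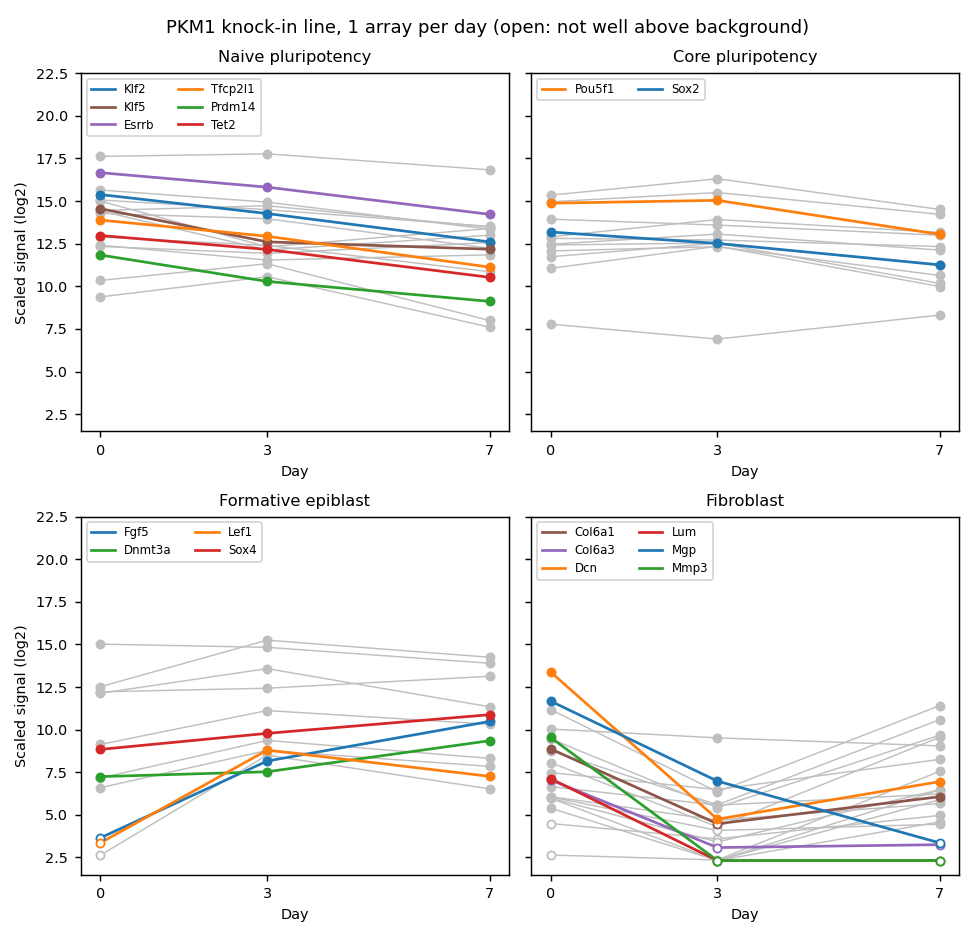
Log2 scaled signal by day in the PKM1 knock-in line for naive pluripotency, core pluripotency, formative epiblast and fibroblast genes, 1 array per day, with a line per gene and open symbols for levels not well above background. Of the 18 naive genes 10 are at least 4-fold lower at day 7 than at day 0, Fgf5 and Lef1 are higher from day 3, and Dcn is lowest at day 3.

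Sterol synthesis genes were higher at day 3 than at day 0 in all 3 lines. In the PKM1 knock-in line 21 of 21 were higher, with a median difference of 1.66. At least 4-fold higher were 5, against 1.43 percent of all measured genes. The wild type line had a median of 2.09, with 13 of 21 at least 4-fold higher. The PKM2 knock-in line had 1.01, with 20 of 21 higher and 1 at least 4-fold higher. Idi1 read 11.20, 13.47 and 10.09 at days 0, 3 and 7, and Fdps 12.71, 14.80 and 12.16. At day 7 the median difference from day 0 was -0.11, with 1 of 21 at least 4-fold higher, Insig1. The integrated stress response genes were lower at day 3, with a median of -1.49. Of 15, 7 were at least 4-fold lower at day 3, against 2.45 percent of all measured genes, and 0 at day 7. Asns, which makes asparagine, read 17.07, 14.88 and 15.75.

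Glycolysis genes had a median difference of 0.68 between day 3 and day 0 and of 0.18 between day 7 and day 0. At day 7, 2 of 24 were at least 4-fold higher, near the 5.82 percent of all measured genes, and the wild type line also had 2 of 24. The 2 in the PKM1 knock-in line were Pfkfb3, a regulator of phosphofructokinase, and Slc16a3, a lactate exporter, at 2.77 and 2.17. Subunits of the respiratory chain had a median of -0.57 at day 7, with 0 of 21 higher and 0 past 4-fold, and the median of all genes was -0.15. Genes induced by low oxygen had a median of 1.46, with 5 of 15 at least 4-fold higher. P4ha1 and P4ha2, which hydroxylate collagen, differed by 4.30 and 3.94, and Bnip3 read 10.83, 13.38 and 14.51.

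Imprinted and growth genes had 5 of 24 at least 4-fold higher at day 7 and 1 lower, against 5.82 and 1.77 percent of all measured genes. Their median difference was 0.25, with 13 of 24 higher at all. The wild type line was close to this, with 4 of 24 at least 4-fold higher, 1 lower and a median of 0.39. Igf2, a growth factor of extraembryonic endoderm and mesoderm, read 3.51, 4.02 and 10.11 at days 0, 3 and 7, below background before day 7, and was at least 46.2-fold higher. Dlk1 was 32.0-fold higher, and Cdkn1c, Peg3 and Sgce differed by 3.85, 2.64 and 2.08. Bmp2, a signal secreted by visceral endoderm, differed by 5.68 between day 7 and day 0. Cell cycle genes had a median of -0.46, and 4 of 29 were at least 4-fold higher, Ccnd2 and the inhibitors Cdkn1c, Cdkn2b and Cdkn2a.

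Some of the largest differences rested on single readings. Of the 272 genes lower at day 7 than at day 0, 34 were well above background on 1 of the 9 arrays (12.5 percent), as were 75 of the 893 higher genes (8.4 percent) and 28 of the 210 higher at day 3 (13.3 percent). Hoxd11 read 10.48 at day 0 and 2.65 and 2.80, below background, at days 3 and 7, and was above background elsewhere only at day 7 in both other lines. The highest at day 3 against day 0 were Enpp2, which makes lysophosphatidic acid, Smcp, a sperm protein, and Speer4d, at 10.25, 9.60 and 10.14 on that day. Slc6a20b, Rapgef4 and Olfr121 were also among the 10 highest at day 3 and read 9.07, 9.31 and 9.01 there. Slc6a20b and Rapgef4 were above background on no other array. Of the called genes with another measured probe, 167 of 273 had another probe past 4-fold in the same direction between day 7 and day 0, and 18 had a probe of opposite sign.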

How the data were processed

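The 3 arrays of the PKM1 knock-in line, 1 per day, and the 6 of the other lines were 1-colour Agilent arrays with 62976 spots, of which 3671 were controls. Per the labels, total RNA was amplified and labelled with Cy3. The deposited spot intensity is the processed signal of Agilent Feature Extraction 10.10, background-corrected by that program, per the file headers and the submitters' processing notes.

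From these intensities, control spots and outlier-marked spots were left out, spots of a probe averaged, each array scaled to a common 75th percentile, values under 5 set to 5 and log2 taken (Python 3.11.15, numpy 2.4.6, pandas 2.3.3). Of 55681 probes, 27235 were named through RefSeq accessions, for 20660 genes, and the brightest probe stood for its gene. A gene counted as measured where well above background on at least 1 of the 2 arrays compared, and a level below background counted at the higher of itself and the detection limit of its array. With 1 array per line and day there is no test, and a difference of at least 4-fold describes size only. The calculation was tested on simulated data, with known shifts put into genes above background at day 0. The simulated day 7 array took its background calls from day 0, so the rule for levels at the detection limit was not tested.

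The members and the 42 gene lists were chosen with earlier results of these data known, and support nothing independently. Names were taken from the Pkm probe, up to 6 members of each list with the largest difference past 4-fold (up to 2 where none passed), every carrier, receptor and endoderm factor, the 10 largest differences each way, and the 10 genes farthest from the other lines each way, and not all of these are named. Names outside this rule (neighbouring genes, further chains or members of a list, and markers below background) were chosen after their values were seen. A few genes are not reported here. Alternatives were another scaling, quantile and normexp processing (limma 3.58.1), the deposited value table, other filters, thresholds and probe rules, and the other lines. Using the mean of the 3 lines at the earlier day as the baseline was chosen after seeing the data.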

Additional observations from a re-analysis of the deposited data

Results flagged for a closer look

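Several genes were higher at day 7 than at day 0 in the PKM1 knock-in line and lower in the PKM2 knock-in line, each by at least 4-fold. These opposite directions were not tested, with 1 array per line and day. The smooth muscle genes Acta2 and Tagln gave log2 differences of 6.53 and 4.325 in the PKM1 line, against -4.955 and -2.67 in the PKM2 line. The -4.955 is a bound, since Acta2 was below background at day 7 in the PKM2 line. The keratins Krt8, Krt18 and Krt19 differed by 5.19, 5.39 and 5.24, against -2.995, -3.07 and -2.84. Csf1, a macrophage growth factor, differed by 2.28 against -3.27, also a bound for the same reason. Mogat2 differed by 6.15 against -2.01, Ccnd2 by 3.24 against -2.74, and Dlk1 by 5.0 against -2.84. Over lists, simple epithelium had a median of 1.02 for the PKM1 line against -1.21 for the PKM2 line, and smooth muscle 2.89 against -2.12. In wild type cells Acta2 differed by 6.38 and Krt18 by 3.79, the same direction as in the PKM1 knock-in line.

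Probes with no gene symbol, which the comparisons did not use, also differed between day 7 and day 0 in the PKM1 knock-in line. Of 14429 measured, 345 were at least 4-fold higher (2.39 percent) and 357 at least 4-fold lower (2.47 percent).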

How the results depend on the processing

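Of 98 alternative counts, of genes and of lists past a median of 2, 67 stayed within 1.5 times the reported one and 31 did not. Of the 42 list medians, 15 moved by more than 0.33 with normexp, 15 with all 3 arrays above background, 10 with no filter, 10 with the mean baseline, 6 with 3 of 9 arrays above background, 5 with the mean of probes and 5 without the bound, and 0 under the other processing alternatives. The median changed sign under at least 1 of them for 13 lists, none of them past 2. Counts are given as higher and lower, for day 7 against day 0, day 3 against day 0, and day 7 against day 3. Normexp gave 495 and 126, 56 and 130, and 656 and 151. A 2-fold threshold gave 2146 and 1570, 1177 and 1296, and 2586 and 2771, and an 8-fold threshold 430 and 88, 61 and 122, and 596 and 72. Asking for all 3 arrays of the line above background gave 506 and 170, 115 and 209, and 665 higher. Without the detection bound, 406 genes were higher at day 3 than at day 0. Between day 7 and day 3, 233 were lower with the 75th percentile over detected probes, and 259 against the mean of the 3 lines as baseline, chosen after seeing the data. Lists with a median at least 2 higher at day 7 than at day 0 numbered 5, and 3 with normexp. Lists at least 2 lower numbered 1, and 0 with normexp, with quantile normalization, with the 75th percentile over detected probes and with the mean baseline. The coagulation list was at -0.19 in the wild type line and smooth muscle at -2.12 in the PKM2 knock-in line, opposite in sign to the PKM1 knock-in line. The cause of these shifts was not tested, except that fewer genes pass a stricter threshold or filter. Slide could not be entered as a block within the line, since day 3 was the only array of the line on its slide. No paired analysis was possible because each line had 1 array per day and the labels give no replicate number shared between days. Low signals limit the folds: 336 of the 893 higher genes were set against a detection limit.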

Other observations

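Cyp26a1, Prss12, Tff3, Clic6 and Hpx, on none of the gene lists and chosen after their values were seen, were also high at day 7 in the PKM1 knock-in line. Hpx, hemopexin, the plasma heme carrier, stood at 12.63 at day 7 and below background on both earlier days. Cyp26a1, which degrades retinoic acid, read 5.31, 3.78 (below background) and 13.18 at days 0, 3 and 7. Tff3, a mucosal trefoil peptide, read 4.08 (below background), 4.72 and 13.60. Pou4f2, a neuronal transcription factor, went the other way, at 4.65 at day 7 against 8.82 at day 0 in the PKM1 knock-in line, while it stood at 12.09 at day 7 in the PKM2 knock-in line and at 8.74 in the wild type line.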
